A study of Mus musculus with 12 samples.

Results

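Immediate early genes are followed here in testes of juvenile mice, in RNA and in ribosome footprints. The genes are *Fos*, *Fosb*, *Jun*, *Junb*, *Egr1*, *Egr2*, *Nr4a1*, *Ier2*, *Dusp1* and *Btg2*, 10 of the 20620 genes in the count table, and they were chosen by name because one of the 6 testis extracts, heterozygous extract 2, held more of several of them than the other extracts did. The excess in that extract is therefore given as a description and is not tested, and fits that include the extract are not independent of the choice. Ribosome profiling was done on testes of C57BL/6 mice at postnatal day 16, either *Mael*+/- or *Mael*-/-. Loss of Maelstrom, a protein of the piRNA pathway, releases the retrotransposon LINE-1 in male germ cells, and the study asked whether translation changes with it. The controls are heterozygous and carry 1 mutant allele of *Mael* themselves, so no extract is wild type. Each genotype had 3 extracts, all prepared with cycloheximide, which halts elongating ribosomes, and each extract gave 1 RNA library and 1 footprint library, so there were 12 libraries.

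Immediate early genes are transcribed within minutes of a stimulus such as a growth factor, calcium or stress, without new protein synthesis, because the factors that drive them are already present and are switched on by kinases. Most encode transcription factors or feedback inhibitors, and their mRNAs are short-lived. In the testis they are known to respond to hormones and growth factors in somatic cells such as Leydig and Sertoli cells.

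Gene counts summed to between 13697267 and 27462358 per RNA library and between 7609932 and 13233565 per footprint library. *Mael* RNA stood at 219, 158 and 144 CPM in the heterozygous libraries and at no more than 0.0991 CPM in the *Mael*-/- libraries, as the labels say. CPM (counts per 1e6 gene counts) was taken with the library size scaled by TMM, a factor computed within each assay that sets the bulk of genes equal between libraries. Markers of Sertoli cells, the somatic cells that nurse germ cells, were all detected and summed to between 2374 and 2581 CPM of RNA, so the tissue matched its label. A second extract stood apart from the rest. Heterozygous extract 1 held 810 CPM of RNA from 10 markers of pachytene spermatocytes, where the other 5 extracts held between 251 and 322. The extracts are labelled as biological replicates, but whether each came from 1 animal or from pooled animals is not stated in the sources used here, so the p-values below measure the spread between these extracts. In whole testes, more cells of a type and more RNA per cell cannot be told apart.

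Most of the genes are compact. The RefSeq transcripts of the 10 genes spanned a median of 3568 bases of the genome, against 16705 bases for all 19228 genes with a curated transcript, and had a median of 2 introns against 6. *Jun*, *Junb* and *Ier2* had no intron at all. The pentamer AUUUA, the core of the AU-rich elements that mark short-lived mRNAs (searched as ATTTA), was in the 3′ UTR of 9 of the 10 genes, all but *Ier2*, against 57% of all genes. It occurred 2.42 times per kilobase of 3′ UTR in the 10 genes and 1.85 times over all genes.

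Promoters are shown because cyclic AMP response elements, bound by CREB, are one of the standard inputs to this gene class. The 250 bases before the transcription start were read from RefSeq on GRCm38.p6 for 8 of the genes (*Egr1* and *Ier2* had no entry). Capitals mark TGACG, the core of a cyclic AMP response element, on either strand, so that CGTCA in capitals is the same motif read from the other strand. The 3 genes that stood highest in heterozygous extract 2 come first, *Nr4a1* at chr15:101266596-101266845 on the + strand, *Junb* at chr8:84978749-84978998 on the - strand and *Fos* at chr12:85473640-85473889 on the + strand. *Btg2* at chr1:134079156-134079405 on the - strand is shown for its full palindrome TGACGTCA. *Jun* at chr4:95052223-95052472 on the - strand is shown as the gene with an entry and no match.
Nr4a1: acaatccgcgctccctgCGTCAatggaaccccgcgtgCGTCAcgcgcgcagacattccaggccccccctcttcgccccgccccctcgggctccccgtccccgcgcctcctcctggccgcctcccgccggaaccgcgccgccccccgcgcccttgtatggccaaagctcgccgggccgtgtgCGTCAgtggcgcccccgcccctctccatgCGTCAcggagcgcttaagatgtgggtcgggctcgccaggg
Junb: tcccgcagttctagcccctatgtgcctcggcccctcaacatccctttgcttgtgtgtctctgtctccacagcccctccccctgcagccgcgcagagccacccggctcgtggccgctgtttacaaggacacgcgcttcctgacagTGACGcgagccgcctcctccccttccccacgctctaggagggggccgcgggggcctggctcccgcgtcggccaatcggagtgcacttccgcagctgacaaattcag
Fos: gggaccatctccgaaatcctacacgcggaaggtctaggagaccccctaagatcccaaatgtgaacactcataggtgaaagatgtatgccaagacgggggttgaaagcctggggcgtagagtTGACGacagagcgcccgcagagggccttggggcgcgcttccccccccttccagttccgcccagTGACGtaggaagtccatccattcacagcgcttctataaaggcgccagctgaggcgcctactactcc
Btg2: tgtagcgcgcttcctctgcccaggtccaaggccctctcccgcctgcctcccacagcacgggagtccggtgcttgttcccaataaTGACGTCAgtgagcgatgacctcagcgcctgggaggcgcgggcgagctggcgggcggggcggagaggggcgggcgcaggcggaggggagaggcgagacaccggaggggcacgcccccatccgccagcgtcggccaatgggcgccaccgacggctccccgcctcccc
Jun: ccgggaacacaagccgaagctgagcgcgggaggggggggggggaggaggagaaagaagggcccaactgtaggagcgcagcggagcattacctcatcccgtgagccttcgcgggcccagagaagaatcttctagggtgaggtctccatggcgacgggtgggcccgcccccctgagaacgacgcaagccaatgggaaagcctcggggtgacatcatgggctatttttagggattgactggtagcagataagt

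Of the 8 promoters, 7 held TGACG, all but that of *Jun*, against 19.8% of all 27025 genes with an entry. *Nr4a1* had 4 matches, which began 233, 213, 69 and 40 bases before the start, and only 0.137% of all promoter windows held as many. *Fos* had matches at 129 and 66 bases and *Junb* had 1 at 106 bases. The full element TGACGTCA, which contains TGACG on both strands, was found in *Dusp1* and *Btg2* and in 1.77% of all genes. The AP-1 site TGANTCA, to which Fos and Jun proteins bind, was in none of the 8 and in 7.82% of all genes. The CArG box, the site of serum response factor, was in *Egr2* alone and in 1.62% of all genes. These are matches of letters in a short window, and binding was not measured.

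*Nr4a1*, which encodes an orphan nuclear receptor that switches on steroidogenic genes in Leydig cells, had the largest excess in extract 2. In RNA it stood at 15.1, 49.3 and 14.4 CPM in heterozygous extracts 1 to 3 and at 8.81, 10.7 and 20.3 CPM in *Mael*-/- extracts 1 to 3. In footprints it stood at 23.5, 125 and 30.4 CPM and at 20.1, 23.1 and 37.8 CPM in the same order. Heterozygous extract 2 lay above every other extract in both assays, 3.42-fold over the median of the other 5 in RNA and 5.31-fold in footprints. The other 5 extracts of both genotypes overlapped.

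*Junb* encodes a subunit of AP-1, the dimeric transcription factor that Fos and Jun proteins form, and often opposes c-Jun. Its RNA stood at 15.6, 63.8 and 18.8 CPM in the heterozygous extracts and at 22.6, 17.3 and 26.3 CPM in the *Mael*-/- extracts. Its footprints stood at 16.2, 61.8 and 16.8 CPM and at 16.3, 12.97 and 18.9 CPM. Again 1 extract was high, 3.40-fold over the median of the others in RNA and 3.80-fold in footprints. Over the other 5 extracts its coefficient of variation was 21.4% in RNA and 13.03% in footprints, against medians of 10.6% and 10.3% over all genes.

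*Fos*, the classical partner of Jun in AP-1, stood at 6.89, 13.8 and 4.91 CPM of RNA in the heterozygous extracts and at 5.68, 6.54 and 7.33 CPM in the *Mael*-/- extracts. Footprints of *Fos* were at 7.32, 12.2 and 5.27 CPM and at 5.83, 4.79 and 6.53 CPM. Extract 2 was 2.10-fold over the median of the others in RNA and 2.09-fold in footprints, on counts of 376 and 94 reads.

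The remaining AP-1 genes did not share this. *Jun*, which encodes c-Jun, stood at 53.0, 72.7 and 78.3 CPM of RNA in the heterozygous extracts and at 71.4, 64.9 and 69.4 CPM in the *Mael*-/- extracts, and its footprints ranged from 62.6 to 92.4 CPM. Heterozygous extract 3, not extract 2, was highest for *Jun* in both assays. *Fosb*, a paralog of *Fos*, was near the limit of detection, with 10 to 24 reads per RNA library and 3 to 15 per footprint library, and only its RNA passed the filter on low counts.

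*Egr1* and *Egr2* encode zinc finger transcription factors of 1 family. *Egr1* RNA was at 8.84, 11.4 and 5.55 CPM in the heterozygous extracts and at 7.79, 7.04 and 7.44 CPM in the *Mael*-/- extracts. *Egr1* footprints were at 35.2, 75.7 and 38.7 CPM and at 45.8, 38.0 and 38.9 CPM, so extract 2 was 1.54-fold over the median of the others in RNA and 1.95-fold in footprints. *Egr2* RNA ranged from 4.26 to 6.11 CPM over all 6 extracts, with extract 2 at 4.76 CPM, inside the range of the rest. Its footprints were highest in extract 2, at 3.88 CPM against 2.55 to 3.56 CPM in the others.

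The feedback inhibitors differed among themselves. *Btg2*, an antiproliferative gene that recruits the mRNA deadenylase, stood at 54.2, 98.3 and 72.9 CPM of RNA in the heterozygous extracts and at 65.6, 64.4 and 82.5 CPM in the *Mael*-/- extracts. Its footprints were at 30.8, 67.0 and 38.6 CPM and at 35.2, 34.1 and 46.0 CPM, 1.90-fold over the median of the other 5 in extract 2. *Dusp1*, a phosphatase that inactivates MAP kinases, ranged from 4.12 to 7.61 CPM of RNA and from 7.53 to 11.7 CPM of footprints, and its highest footprint level was in *Mael*-/- extract 1. *Ier2*, a nuclear protein of the same response, was the steadiest of the 10 genes in RNA, with a coefficient of variation of 4.30% over the 5 extracts other than heterozygous extract 2, against a median of 10.6% over all genes.

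**Figure D1:**
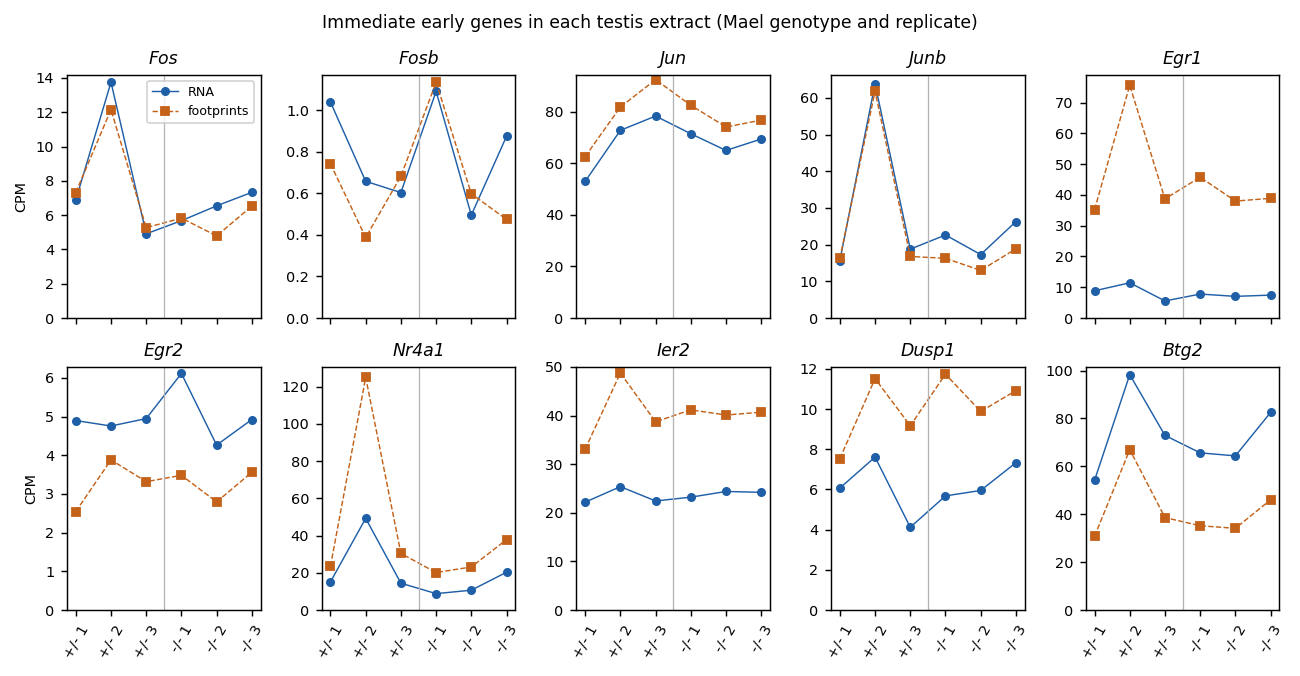
Level of each immediate early gene (CPM, y axis from 0, a separate scale per gene) in heterozygous (+/-) and *Mael*-/- (-/-) extracts 1 to 3 on the x axis, with RNA as circles, footprints as squares and 1 library per point. *Nr4a1*, *Junb* and *Fos* peak in heterozygous extract 2 in both assays, while *Jun*, *Egr2* RNA and *Fosb* do not.

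Against all other genes, the excess in heterozygous extract 2 was sized as its log2 CPM minus the median log2 CPM of the other 5 extracts, with a prior of 2 counts. This is the measure that chose the genes, so it is a description. In RNA it was 1.77 for *Nr4a1*, 1.76 for *Junb*, 1.06 for *Fos*, 0.62 for *Egr1* and 0.58 for *Btg2*, with *Nr4a1* ranked 9 of 14685 genes and *Junb* ranked 10. For *Dusp1* at 0.35 and *Ier2* at 0.13, extract 2 was highest by only 1.04-fold over the next extract. For *Jun* at 0.07, *Egr2* at -0.05 and *Fosb* at -0.37 it was not the highest. The highest of the 6 RNA libraries was that of extract 2 for 7 of the 10 genes and for 19.7% of all genes. In footprints the excess was 2.40 for *Nr4a1*, 1.91 for *Junb*, 1.04 for *Fos*, 0.96 for *Egr1* and 0.92 for *Btg2*. The footprint library of extract 2 was the highest for 7 of the 9 genes that passed the filter and for 24.3% of all genes.

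Few genes stood this high in both assays. Of 13448 genes measured in both, 13 had an excess over 1 in RNA and in footprints, and 3 of them were *Nr4a1*, *Junb* and *Fos*. *Mael* was another, since 3 of the 5 reference extracts lack it. The excess of *Mroh4* was the largest of the other 9 genes, at 3.42 in RNA and 3.26 in footprints. A list of 32 further immediate early genes, of which 30 passed the filter, had a median excess of 0.12 in RNA and 0.26 in footprints, against 0.47 for the 10 genes in RNA, 0.92 for the 9 that passed in footprints and close to 0 for all genes. None of the 30 exceeded 1 in RNA, and *Nr4a2*, a paralog of *Nr4a1*, did so in footprints, at 1.25. Extract 2 was the highest library for 11 of the 30 in RNA and for 17 of the 30 in footprints, to be read against the 19.7% and 24.3% of all genes. The 3 most abundant of that list were *Jund*, *Rhob* and *Ctgf*. RNA of *Jund*, the AP-1 subunit with the steadiest expression, was at 284 CPM in extract 2 and between 194 and 258 CPM elsewhere, that of *Rhob* was inside the range of the other extracts and that of *Ctgf* was below it, at 107 CPM against 112 to 193.

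**Figure D2:**
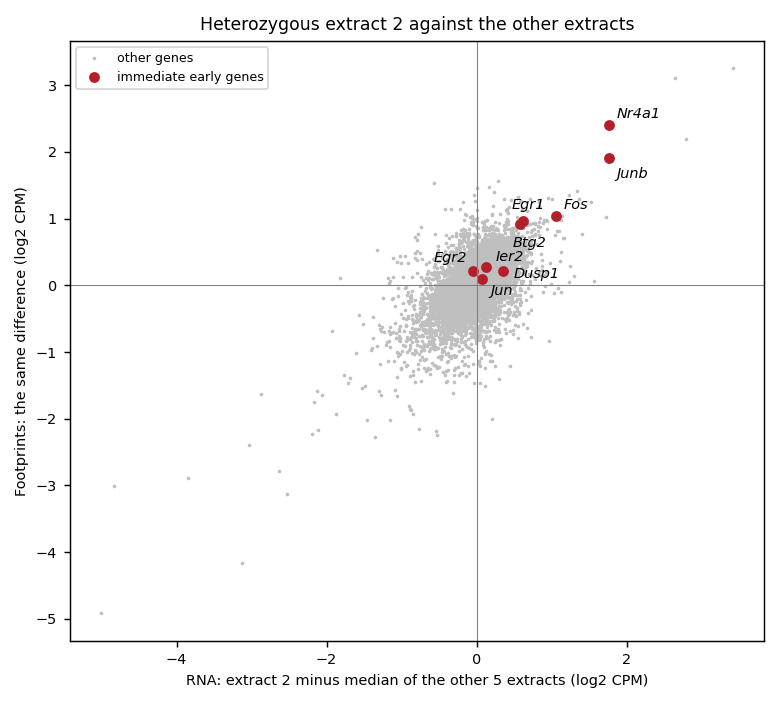
Excess of heterozygous extract 2 over the median of the other 5 extracts in RNA (x axis, log2 CPM) and in footprints (y axis, log2 CPM), 1 point per gene, with the immediate early genes that passed the filter in both assays in red (*Mael* is not drawn). *Nr4a1* at 1.77 and 2.40 and *Junb* at 1.76 and 1.91 lie far from the bulk of genes, and *Jun*, *Egr2*, *Ier2* and *Dusp1* lie within it.

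Other gene groups were read in the same extract, and their part in the excess was not tested. The 18 factors upstream of immediate early genes (the kinases, SRF, its partners and CREB) had a median excess of -0.05 in RNA and 0.08 in footprints, and the 10 heat shock genes had 0.004 and -0.19. The 8 macrophage markers summed to 155 CPM of RNA in extract 2, against 168 and 258 CPM in the other heterozygous extracts and 243 to 248.8 CPM in the *Mael*-/- extracts, and none was highest in extract 2. Leydig cell markers (9 genes) summed to 660 CPM of RNA in extract 2, inside the range of 550 to 849 CPM of the other extracts. Their median excess was -0.40 in RNA and -0.27 in footprints, and 1 of the 9 was highest in extract 2 in each assay. Endothelial markers (7 genes) summed to 110 CPM of RNA, against 101 to 125, and peritubular myoid markers (7 genes) to 1184 CPM, against 1220 to 1369. Sertoli cell markers (9 genes) summed to 2416 CPM of RNA, against 2374 to 2581, and to 3931 CPM of footprints, against 3091 to 4173. Spermatogonia markers (7 genes) summed to 892 CPM of RNA, above the 711 to 784 CPM of the other extracts, with 5 of the 7 highest in extract 2. Their footprints summed to 1280 CPM, against 1107 to 1214, with 4 of the 7 highest there. Early meiotic markers (7 genes) summed to 677 CPM of RNA in extract 2, against 1997 and 862 CPM in the other heterozygous extracts and 654 to 1000 CPM in the *Mael*-/- extracts. Pachytene markers summed to 306 CPM there. Of 7 blood cell markers, the 6 globin genes were listed at 0 in every library, and *Alas2*, the erythroid enzyme of heme synthesis, was at 10.97 CPM of RNA in extract 2 and at 4.49 to 8.46 CPM elsewhere.

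Genes whose profile over the 12 libraries was most like the mean profile of the group were sought. Likeness was the root-mean-square difference of log2 CPM centred within each assay. The search covered 12536 genes above a minimum mean count in each assay, and the immediate early genes among them were then set aside. The closest others were *Cdh24*, *Bcan*, *Vwa2*, *Abcc4*, *Hes5* and *Cacna1a*, at 0.10 to 0.14, against 0.35 for the median gene. *Bcan* RNA, for example, was at 62.9 CPM in extract 2 and between 33.0 and 46.1 CPM elsewhere. In all 6 genes extract 2 was the highest extract in both assays. The search favoured this, because the mean profile itself peaked in extract 2, at 0.60 in RNA and 0.74 in footprints. The immediate early genes in the mean profile lay at 0.13 (*Btg2*) to 0.55 (*Nr4a1*) from that mean.

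Genotype was compared with edgeR's quasi-likelihood test, with adjustment over all genes, and since 1 of the 3 heterozygous libraries chose the genes, the values describe them. None of the 10 genes was called in RNA at an adjusted p under 0.05, where 0.116% of all genes were, none had an unadjusted p under 0.05, and DESeq2 and limma voom called none either. In footprints none of the 9 genes tested was called, where 0.0593% of all genes were, again with none at an unadjusted p under 0.05 and none called by DESeq2 or voom. *Nr4a1* was lower in *Mael*-/- RNA by a log2 difference of -0.97 (95% interval -2.02 to 0.08), with adjusted p = 0.939. Without heterozygous library 2 that value was -0.14 (-0.81 to 0.54). In footprints *Nr4a1* was at -1.14 (-2.30 to 0.02), and at -0.01 (-0.57 to 0.54) without that library.

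*Junb* moved likewise, from -0.57 in RNA and -0.96 in footprints over all libraries to 0.36 and -0.05 without heterozygous library 2. *Fos* went from -0.38 and -0.51 to 0.15 and -0.14. The 5 genes that stayed nearest to 0 in RNA with all libraries were *Jun*, *Ier2*, *Egr2*, *Fosb* and *Btg2*, at 0.01, 0.04, 0.06, 0.08 and -0.08. *Dusp1* was at 0.10 in RNA and 0.21 in footprints, and at 0.32 and 0.38 without library 2. With all libraries, without that library and without heterozygous library 1, no immediate early gene was called in either assay. Unadjusted edgeR p-values under 0.05 depended on the setting. Without heterozygous library 1 there were 2 in RNA (953 of 14876 genes) and 4 in footprints (835 of 13654). Without heterozygous library 3 there were 3 in RNA (1479 of 14796) and 3 in footprints (1371 of 13645). Without *Mael*-/- library 3 there was 1 in RNA (551 of 14797) and 1 in footprints (401 of 13677). With no filter on low counts there was 1 in RNA (1020 of 17742) and 2 in footprints (867 of 17434). With the replicate number as a block there was 1 in RNA (1005 of 14685) and none in footprints. All of these settings keep library 2, which chose the genes, and without library 2 there were none. Of the 30 further immediate early genes tested, none was called in RNA or in footprints, and their median log2 difference was 0.02 and -0.04.

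**Figure D3:**
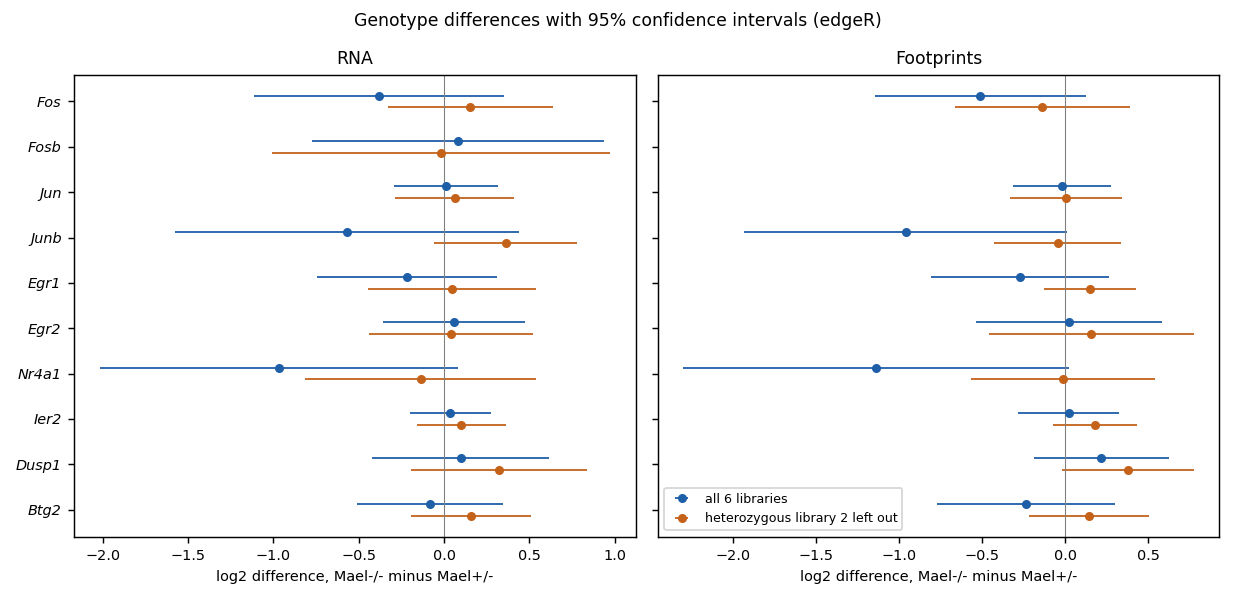
Log2 difference between *Mael*-/- and *Mael*+/- (x axis) of each immediate early gene in RNA (left) and footprints (right), with 95% confidence intervals from edgeR, over all 6 libraries of the assay and with heterozygous library 2 left out. When that library is left out, *Nr4a1* shifts to -0.14 in RNA and to -0.01 in footprints, and *Fosb* has no footprint value because it did not pass the filter.

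How many footprints a gene has for its RNA is a ratio within an extract. The genes were chosen by their levels in heterozygous extract 2, so the ratio in that extract is not independent of the choice. The ratio is of footprint reads on the coding sequence to RNA reads on the whole mRNA, relative to the other genes, and the *Mael*-/- extracts give it without heterozygous extract 2. There 8 of the 10 genes were called. More footprints per RNA were found for 5 of them, where 33.1% of all genes were called in that direction, and fewer for 3, where 34.1% were, so calls in both directions were common among all genes. *Egr1* had a log2 ratio of 2.57 (SE 0.11, adjusted p = 3.63e-13), *Nr4a1* 1.06, *Dusp1* 0.87, *Ier2* 0.87 and *Jun* 0.29. *Btg2* was at -0.79, *Egr2* at -0.51 and *Junb* at -0.37. The values of *Fos*, -0.11, and *Fosb*, 0.07, did not pass the test. With the extract as a term, which pairs the libraries of 1 extract, the same 8 genes were called, 5 up and 3 down, where 35.2% and 35.7% of all genes were. The calls of *Egr2* and *Junb* were lost with DESeq2, with voom, and without RNA library 1 or 3 or footprint library 1 or 2 of the *Mael*-/- group.

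In the heterozygous extracts 3 of the 10 genes were called, all with more footprints per RNA, where 23% of all genes were called up and 25.1% down. These fits include extract 2, so the calls are not independent of the choice of genes. *Egr1* was again highest at 2.63 (SE 0.35, adjusted p = 0.000315), rank 96 of 14259 genes. *Ier2* was at 0.88 and *Dusp1* at 0.76. *Nr4a1*, at 1.28, did not pass (adjusted p = 0.15). With the extract as a term, 7 genes were called, where 34.5% of all genes were up and 34.9% down. These were *Egr1* at 2.62, *Nr4a1* at 1.17, *Ier2* at 0.87, *Dusp1* at 0.78 and *Jun* at 0.31, all up, and *Btg2* at -0.66 and *Egr2* at -0.50, both down. *Nr4a1* and *Btg2* were also called, at 0.96 and -0.79, when both libraries of extract 2 were left out, and *Dusp1* was then not called, at 0.80.

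**Figure D4:**
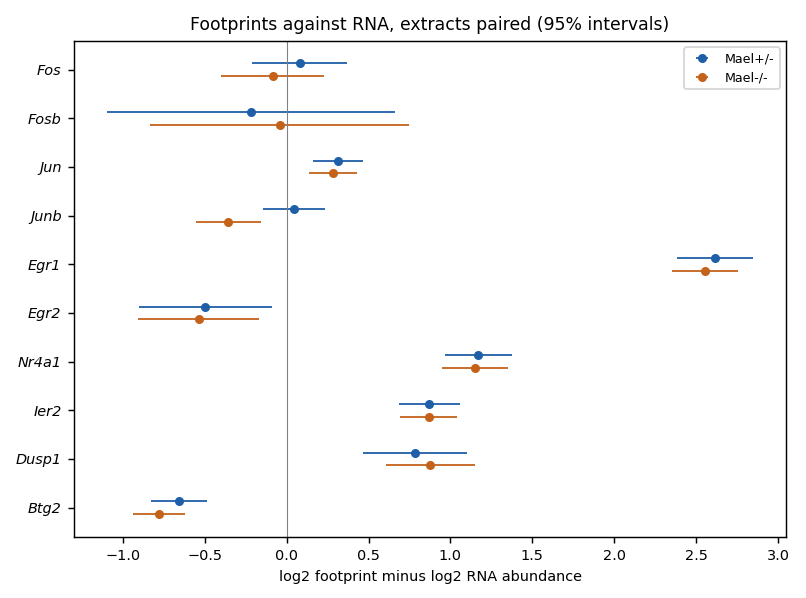
Log2 ratio of footprints to RNA relative to the other genes (x axis) for each immediate early gene in *Mael*+/- and *Mael*-/- extracts, from edgeR with the extract as a term, with 95% confidence intervals. *Egr1* stands at 2.62 and 2.56, and *Junb* differs most between genotypes among the genes with narrow intervals, at 0.05 and -0.36.

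Because footprints fall on coding sequence and RNA reads on the whole mRNA, the ratio was also taken per kilobase of each, over 12678 genes with a RefSeq transcript, relative to the median gene. *Egr1* remained the highest of the 9 genes at 2.57 ± 0.29 (SD, 6 extracts), at the 99.1 percentile of all genes. *Btg2*, whose coding sequence is 15.5% of its mRNA, had fewer footprints per RNA by reads but stood at 1.03 ± 0.14 per length. *Ier2* was at 1.12, *Jun* at 1.02, *Dusp1* at 0.71 and *Nr4a1* at 0.66, all above the median gene. *Fos* at -0.03 was level with it, and *Junb* at -0.26 and *Egr2* at -0.51 lay below.

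Levels between genes were compared on the same scale. RNA per kilobase of mRNA was highest for *Btg2* at 23.7 ± 5.06 CPM per kilobase (SD, 6 extracts) and *Jun* at 21.4 ± 2.72, which do not differ beyond their spread. *Ier2* at 15.5 ± 0.81 and *Junb* at 14.9 ± 9.92 came next. Without heterozygous extract 2, *Junb* RNA was at 10.9 ± 2.34 and *Ier2* at 15.3 ± 0.66 (SD, 5 extracts), and *Junb* no longer reached the level of *Ier2*. *Nr4a1* followed at 7.98 ± 6.05, then *Fos* at 3.56 ± 1.51, *Dusp1* at 3.15 ± 0.65, *Egr1* at 2.61 ± 0.65 and *Egr2* at 1.85 ± 0.23. In footprints per kilobase of coding sequence *Egr1* moved up the order, to 28.3 ± 9.51 CPM per kilobase, behind *Btg2* at 88.0 ± 27.9, *Jun* at 77.9 ± 9.90 and *Ier2* at 60.7 ± 7.57. *Nr4a1* at 24.0 ± 22.4 and *Junb* at 23.0 ± 18.1 came after it, within its spread. Without heterozygous extract 2, footprints per kilobase of *Egr1* were at 24.6 ± 2.44, above *Junb* at 15.7 ± 2.04 and *Nr4a1* at 15.0 ± 3.95 (SD, 5 extracts) by more than their spread.

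Both libraries of heterozygous extract 2 entered the choice of genes, so its own ratios are given here as a description without a test. The fits of the heterozygous extracts above and of translation efficiency below include that extract, except where it is said to be left out. Within that extract the ratio was the highest of the 6 extracts for 4 of 9 genes, *Egr2*, *Nr4a1*, *Ier2* and *Btg2*, where 19.6% of all genes were highest there. Its log2 difference from the median of the other 5 extracts had a median of 0.27 over the 9 genes and of 0.0033 over all genes. The log2 ratio of *Nr4a1* was 1.34 in extract 2 and between 0.64 and 1.19 in the others. That of *Btg2* was -0.55, against -0.91 to -0.81, that of *Ier2* was 0.94, against 0.58 to 0.83, and that of *Egr2* was -0.25, against -0.86 to -0.41. For *Junb* it was -0.04, inside the range of -0.47 to 0.06.

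Translation efficiency, the change of footprints between genotypes beyond that of RNA, was tested as an interaction over all 12 libraries. None of the 10 genes was called, where 0% of all genes were (0 of 14374 genes with edgeR, 83 of them at an unadjusted p under 0.05, and 0 with DESeq2 and voom). None of the 10 had an unadjusted p under 0.05 without pairing. The largest difference in size was that of *Junb*, at -0.39 (95% interval -2.005 to 1.22). With the extract as a term it was -0.40 (-0.67 to -0.14), with unadjusted p = 0.00421 and adjusted p = 1 in edgeR. In that paired fit 319 of all 14374 genes had an unadjusted p under 0.05, and *Junb* was the only 1 of the 10 genes. Without heterozygous extract 2 the difference of *Junb* was -0.40 (-0.998 to 0.19). The log2 footprint to RNA ratio of *Junb* was -0.46, -0.40 and -0.47 in the *Mael*-/- extracts and 0.06, -0.04 and -0.15 in the heterozygous extracts. *Junb* is shown as the gene with the largest difference of the 10. How many of all genes separate the genotypes in this way was not counted. *Nr4a1*, the gene with the widest range of levels, was at -0.18 without pairing and at -0.03 (-0.35 to 0.30) with it.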

How the data were processed

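RNA and ribosome footprints were measured in 6 testis extracts, in 12 libraries. Per the study's methods and processing notes, the authors clipped the linker and the random bases of the footprint reads, removed reads of ribosomal DNA with Bowtie 1.2.2, aligned the rest to mm10 with STAR 2.6.0c and counted them with featureCounts (Subread 1.6.4), on whole mRNAs for RNA and on coding sequence for footprints. Whether reads sharing the random bases were collapsed is not stated in the sources used here, so intervals cover only how the counts varied between libraries. The authors deposited 1 table of raw counts for genes and repeat copies, of which the gene rows were used. Other deposited tables hold the authors' DESeq2 fold changes and p-values and were not used here.

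Counts were tested with edgeR 4.0.16 (R 4.3.3) using TMM factors, the quasi-likelihood F-test, the default low-count filter and Benjamini-Hochberg adjustment over all genes that passed, 14685 in RNA and 13500 in footprints. Genes were called at an adjusted p under 0.05. Alternatives were DESeq2 1.42.0, limma 3.58.1 voom (sample quality weights), size factors by median of ratios, no filter, each library left out and a replicate block, and the excess of heterozygous extract 2 was also taken without TMM, with a prior of 0.5 counts and against the other heterozygous extracts alone. The tests were tried on simulated counts. Groups came from the labels. RNA and footprint aliquots with the same genotype and number come from 1 extract, and their deviations from the group mean correlated over 13448 genes at 0.75, 0.59 and 0.64 in the heterozygous extracts and at 0.24, 0.22 and 0.23 in the *Mael*-/- extracts, so the fit with the extract as a term is given beside the unpaired fit where it changes a call. Gene models and promoters came from RefSeq on GRCm38.p6.

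The genes and gene lists were chosen with earlier results of these data known. All 10 genes are named, and of the other lists mainly the most abundant members. *Nr4a2* and *Mroh4* were named after their values were seen. The genes most alike were the 6 with the smallest root-mean-square difference.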

Additional observations from a re-analysis of the deposited data

How the results depend on the processing

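No immediate early gene was called between genotypes, in RNA, in footprints or in translation efficiency, under any alternative run, and the median excess of heterozygous extract 2 moved by less than the spread between replicates. The replicate block raised the heterozygous footprints against RNA from 3 to 7 genes called (2 to 4 with 1 library or extract 2 left out), and in *Mael*-/- 8 genes were called with it and 6 to 8 with 1 library left out. The labels give no shared source for heterozygous and *Mael*-/- libraries of 1 assay with the same number, and their deviations correlated at 0.0013 to 0.21. That block gave 50 genes called in RNA in place of 17, and 23 in footprints in place of 8. DESeq2 gave 58 and 21, and voom 36 in RNA. Leaving out 1 library gave 2 (*Mael*-/- library 1) to 64 (heterozygous library 1) in RNA, and 2 (heterozygous library 3) to 17 (heterozygous library 1) in footprints. The causes were not tested.

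These log2 differences changed sign, those of *Junb* and *Fos* among them. With voom *Jun* and *Egr2* were at -0.10 and -0.038 in RNA, *Egr2* at -0.0053 in footprints, *Jun*, *Egr2*, *Nr4a1* and *Dusp1* at 0.033, 0.053, 0.071 and -0.026 in translation efficiency, and *Fosb* and *Junb* at 0.011 and -0.17 in heterozygous footprints against RNA. *Fosb* was at -0.043 in *Mael*-/- footprints against RNA with the replicate block. With 1 library left out, RNA ran from -0.66 to 0.15 for *Fos*, -0.13 to 0.34 for *Fosb*, -0.14 to 0.12 for *Jun*, -0.90 to 0.36 for *Junb*, -0.45 to 0.046 for *Egr1*, -0.084 to 0.17 for *Egr2*, -0.11 to 0.32 for *Dusp1* and -0.27 to 0.16 for *Btg2*. Footprints ran from -0.17 to 0.11 for *Jun*, -0.47 to 0.15 for *Egr1*, -0.13 to 0.16 for *Egr2*, -0.10 to 0.18 for *Ier2* and -0.45 to 0.14 for *Btg2*. Translation efficiency ran from -0.67 to 0.25 for *Fos*, -0.27 to 0.45 for *Fosb*, -0.17 to 0.12 for *Jun*, -1.32 to 0.53 for *Junb*, -0.32 to 0.37 for *Egr1*, -0.18 to 0.12 for *Egr2*, -1.01 to 0.96 for *Nr4a1*, -0.14 to 0.14 for *Ier2*, -0.11 to 0.32 for *Dusp1* and -0.40 to 0.23 for *Btg2*. Footprints against RNA ran from -0.35 to 0.56 for *Fos*, -0.36 to -0.01 for *Fosb* and -0.90 to 0.95 for *Junb* in the heterozygous extracts, and from -0.45 to 0.26 for *Fosb* in *Mael*-/-. In translation efficiency and in footprints against RNA, 1 library left out keeps its extract in 1 assay only, and those ranges include that imbalance. The median translation efficiency difference of the 10 genes was -0.22 without heterozygous RNA library 2 and 0.24 without heterozygous footprint library 2. Without both it was 0.07. For *Fosb*, 3 to 24 reads per library limit any statement.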
